A study of Homo sapiens with 2 samples.

Results

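The genes described here make and use UDP-N-acetylglucosamine (UDP-GlcNAc), the activated amino sugar that cells attach to proteins and lipids. They were chosen by symbol from the deposited tables: GFPT1, GFPT2, GNPNAT1, PGM3, UAP1, OGT, MGEA5, NAGK and GNE. All 9 were found among the 25268 gene symbols listed. RNA was sequenced from the prostate cancer line C4-2B MDVR, a castration-resistant derivative of LNCaP that resists the antiandrogen enzalutamide and was grown in 20 µM of it. Of the 2 libraries 1 came from cells given 20 µM Indocin for 3 days and 1 from cells given the vehicle DMSO for 3 days, so both groups carried the same resistance and the same enzalutamide. Indocin is indomethacin, an inhibitor of cyclooxygenases and of the androgen-making enzyme AKR1C3. The labels describe 1 library per group and do not say how many cultures each library came from. No difference below therefore has a replicate check, and no test or p-value is given.

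The hexosamine pathway branches from glycolysis at fructose phosphate. GFPT1 or GFPT2 transfers the amide nitrogen of glutamine to that sugar, GNPNAT1 adds an acetyl group, PGM3 moves the phosphate, and UAP1 joins the sugar to UTP to give UDP-GlcNAc. OGT places single GlcNAc residues on serines and threonines of nuclear and cytosolic proteins, and MGEA5, now named OGA, removes them. NAGK returns free GlcNAc to the pathway, and GNE draws UDP-GlcNAc off to make sialic acid. In prostate cancer the pathway is known for high UAP1 and for its tie to androgen signalling.

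The values were FPKM, the number of sequenced fragments divided by transcript length and total fragments, so levels can be compared between genes. The absolute number of reads was unknown. FPKM summed to 583096 in the Indocin library and 617510 in the DMSO library, and 12078 and 11935 symbols stood at 1 FPKM or more. Steps between low values put the worth of 1 fragment in the Indocin library at 1.013 times that in the DMSO library. Prostate luminal markers of the LNCaP lineage were high, KLK2 at 93.7 FPKM in the Indocin library and 128.4 FPKM in the DMSO library, FOLH1 at 171.0 and 151.3 FPKM. The 5 leukocyte markers summed to 0.561 FPKM in the Indocin library and 0.803 FPKM in the DMSO library, the 3 basal epithelial markers to 0.352 and 0.545 FPKM, and the 5 neuroendocrine markers to 0.760 and 0.635 FPKM. The 7 fibroblast and endothelial markers summed to 5.49 and 4.94 FPKM, of which COL1A1 made up 4.80 and 4.54 FPKM, while COL1A2, DCN and PECAM1 were listed at 0 in both.

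The 2 libraries differed little along the pathway except at its entry and at OGT. GFPT1, the entry enzyme, stood at 32.3 FPKM in the Indocin library and 23.3 FPKM in the DMSO library, 1.38 times as high. OGT, which adds O-GlcNAc in the nucleus and cytosol, stood at 44.7 FPKM in the Indocin library and 35.9 FPKM in the DMSO library, 1.24 times as high. These were the 2 highest ratios among the 9 genes, and GNPNAT1, the second step, had the lowest among those with at least 1 FPKM on average. The log2 ratio, Indocin over DMSO after adding 1 FPKM to each value, was 0.45 for GFPT1, 0.31 for OGT and -0.18 for GNPNAT1. The added 1 FPKM makes folds of low genes look smaller than they are in FPKM.

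None of the 9 genes reached 1.5-fold in either direction on that scale. A mean of at least 1 FPKM over both libraries was held by 7 of them, and GFPT2 and GNE lay below it. Of 11961 genes of the whole table with such a mean, 2.20% (263 genes) stood 1.5-fold or more higher in the Indocin library and 0.752% (90 genes) 1.5-fold or more lower. After scaling to a common upper quartile these counts were 322 higher and 58 lower, and after scaling to a common sum 324 and 52. At 1.2-fold, 2 of the 7 measured pathway genes, GFPT1 and OGT, were higher and none was lower, where 9.92% of all measured genes were higher and 11.7% lower. The median log2 ratio was 0.01 over the 7 genes and -0.03 over all measured genes, whose middle 50% ran from -0.15 to 0.11. Of the 7 genes 4 lay above 0 and 3 below, and under either scaling, or with ratios centred on their median, 5 lay above and 2 below. Of all measured genes 44.8% lay above 0, with a common upper quartile 58.9% and with a common sum 60.4%, where their median was 0.04 and 0.05.

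**Figure D1:**
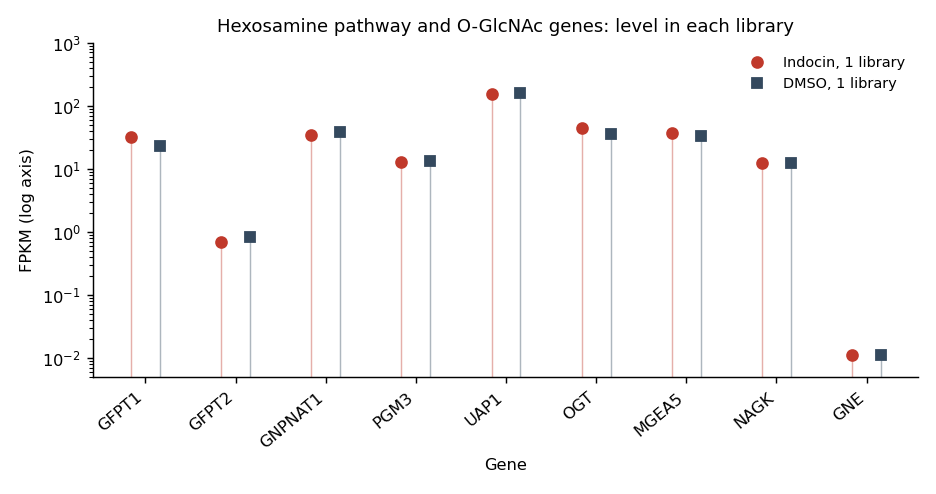
FPKM of the 9 genes on a log axis, in pathway order, with 1 point for the Indocin library (circle, left) and 1 for the DMSO library (square, right). UAP1 was highest at 155.2 and 157.9 FPKM and GNE lowest at 0.0113 and 0.0112 FPKM, and the points of each pair lie close together on this axis.

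GFPT1 and its paralog GFPT2 catalyse the same entry reaction, and GFPT1 is the rate-limiting enzyme in most tissues. GFPT1 made up 97.9% of their summed FPKM in the Indocin library and 96.6% in the DMSO library. Among all measured genes 433, or 3.62%, had a log2 ratio as high as that of GFPT1 or higher. GFPT2 was listed at 0.696 FPKM in the Indocin library and 0.834 FPKM in the DMSO library, a log2 ratio of -0.11, so it lay on the other side of 0 from GFPT1. GFPT1 was thus 46.5 times as high as GFPT2 in the Indocin library and 28.0 times in the DMSO library. The paralogs can share reads, which would weigh more on the low values of GFPT2. The GFPT1 value is 1 number per gene and does not separate its muscle isoform from the common one.

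The levels of ATF4 and XBP1, stress transcription factors that have been tied to such genes, differed between the libraries, as given further on. The promoters of the 2 genes with the highest ratios, GFPT1 and OGT, are shown next. Each is the 250 bases before the RefSeq transcription start, read 5′ to 3′ on the gene's strand from the RefSeq table of build GRCh38.p14. Capitals mark CCACG or its reverse complement, here called a core, which is only part of the longer ER stress element. The rest of that element was not searched for.
GFPT1, chr2:69387228-69387477, minus strand: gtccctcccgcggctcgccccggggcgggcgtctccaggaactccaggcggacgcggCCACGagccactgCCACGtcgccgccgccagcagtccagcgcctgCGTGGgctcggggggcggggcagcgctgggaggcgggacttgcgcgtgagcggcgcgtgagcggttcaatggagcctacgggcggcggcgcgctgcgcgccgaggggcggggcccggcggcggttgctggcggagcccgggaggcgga
OGT, chrX:71532854-71533103, plus strand: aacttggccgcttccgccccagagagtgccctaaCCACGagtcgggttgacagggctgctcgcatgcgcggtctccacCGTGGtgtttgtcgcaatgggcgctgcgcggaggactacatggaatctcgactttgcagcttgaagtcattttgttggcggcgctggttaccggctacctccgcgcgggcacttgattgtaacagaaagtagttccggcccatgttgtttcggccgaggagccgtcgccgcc
The GFPT1 promoter held 3 such cores, beginning 193, 180 and 148 bases before the start, and the OGT promoter 2, at 216 and 172 bases. CCACG is short and common, and was searched on either strand from 250 bases before to 50 after each start. It was found in at least one window of 42.1% of the 27305 genes of the table and of 8 of the 9 genes described here, which had 14 windows. MGEA5 was the one without it. In these windows PGM3 (log2 ratio -0.08) and GFPT2 (-0.11) also held 3 cores, and UAP1 (-0.02) up to 2. GNPNAT1, NAGK and GNE held at most 1 per window. Whether the cores bear on the ratios was not tested. The longer core TGACGTG, the type bound by XBP1, was found in 2.40% of all genes and in UAP1 alone of the 9 genes. When a G follows, it contains the shorter core.
UAP1, chr1:162561537-162561566, plus strand, with TGACGTG in capitals: gctcccggcgcTGACGTGtctgggcggtcg
The composite TGATGNAA, read by ATF4 with a partner of the CEBP family, was found in 4.46% of all genes and in none of the 9 genes. These matches are letters in a window, and binding was not measured.

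**Figure D2:**
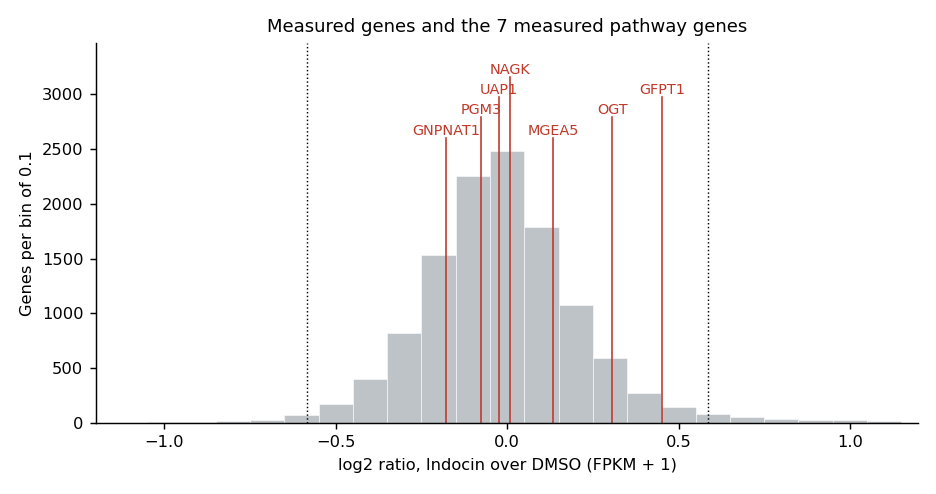
Number of genes (y axis) per bin of 0.1 of the log2 ratio, Indocin over DMSO on the FPKM + 1 scale (x axis, shown from -1.2 to 1.2), for genes averaging 1 FPKM or more. Red lines mark the 7 measured pathway genes and dotted lines 1.5-fold; GFPT1 at 0.45 and OGT at 0.31 stand on the right, inside the dotted line, and the other 5 lie between -0.18 and 0.13.

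The middle of the pathway was flat or slightly lower in the Indocin library. GNPNAT1, the acetyltransferase, stood at 34.2 FPKM in the Indocin library and 38.9 FPKM in the DMSO library, 0.880 times as high. PGM3, the phosphoacetylglucosamine mutase, stood at 12.6 FPKM in the Indocin library and 13.4 FPKM in the DMSO library (log2 ratio -0.08). UAP1, the pyrophosphorylase that completes UDP-GlcNAc, stood at 155.2 FPKM in the Indocin library and 157.9 FPKM in the DMSO library, a log2 ratio of -0.02 that turned to 0.05 with the same upper quartile and 0.06 with the same sum. In the GENCODE annotation of GRCh38, PGM3 shares exon sequence with DOPEY1 on the opposite strand (1.18 FPKM in the Indocin library and 0.919 FPKM in the DMSO library) and GNPNAT1 with an antisense gene. The libraries were strand-specific, but the strand setting of the authors' quantification is not given in the sources used here. Whether reads of such pairs were told apart is therefore unknown.

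UAP1 was the most abundant of the 9 genes in both libraries. Only 4.32% of measured genes had a higher level than UAP1 in the Indocin library and 4.51% in the DMSO library. Its level was 4.80 times that of GFPT1 in the Indocin library and 6.76 times in the DMSO library. Against PGM3, the least abundant of the measured enzymes of the linear pathway, it was 12.3 times as high in the Indocin library and 11.8 times in the DMSO library. UAP1L1, its less studied paralog, stood at 7.06 FPKM in the Indocin library and 7.87 FPKM in the DMSO library (-0.14).

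The order of the 9 levels differed at a few places. In the Indocin library it was UAP1, OGT, MGEA5, GNPNAT1, GFPT1, PGM3, NAGK, GFPT2 and GNE. In the DMSO library GNPNAT1 stood second, ahead of OGT and MGEA5, and the other places were the same. GNPNAT1 was 1.06 times as high as GFPT1 in the Indocin library and 1.66 times in the DMSO library, so these neighbouring steps stood nearly level in the Indocin library. PGM3 and NAGK were side by side in both libraries, and no error is available to say whether they differed.

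The writer and the eraser of O-GlcNAc were both higher in the Indocin library, the eraser by less. MGEA5 stood at 36.9 FPKM in the Indocin library and 33.6 FPKM in the DMSO library, 1.10 times as high (log2 ratio 0.13). Among measured genes 21.7% had a ratio at least that high, and 7.52% had one at least that of OGT. OGT was 1.21 times as high as MGEA5 in the Indocin library and 1.07 times in the DMSO library. Over the scalings and pseudocounts tried OGT ran from 0.28 to 0.39 and MGEA5 from 0.12 to 0.21. Neither could fall below 0, because an equal pseudocount keeps the sign and every rescaling moved the ratios up. The OGT transcript is known to be held in the nucleus with a retained intron when O-GlcNAc is plentiful, and a single FPKM per gene cannot show that form.

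NAGK and GNE, which start salvage and the branch to sialic acid, held nearly the same values in both libraries. NAGK, the GlcNAc kinase of the salvage route, stood at 12.6 FPKM in the Indocin library and 12.5 FPKM in the DMSO library (0.01). GNE, the first enzyme of sialic acid synthesis, was listed at 0.0113 FPKM in the Indocin library and 0.0112 FPKM in the DMSO library. Its FPKM ratio of 1.015 is within 1% of 1.013, the ratio that equal numbers of fragments would give, and values this low can rest on very few fragments. The enzymes that follow GNE were well above it: NANS, which makes the sialic acid phosphate, at 91.0 FPKM in the Indocin library and 96.5 FPKM in the DMSO library, and CMAS, which activates sialic acid, at 74.8 and 77.0 FPKM. NANP, the phosphatase between them, stood at 5.49 and 6.84 FPKM (-0.27). None of these 4 genes after GNE, with the transporter SLC35A1 (-0.12), reached 1.5-fold. Their median was -0.10, against -0.04 with a common upper quartile and -0.03 with a common sum, where CMAS turned above 0.

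**Figure D3:**
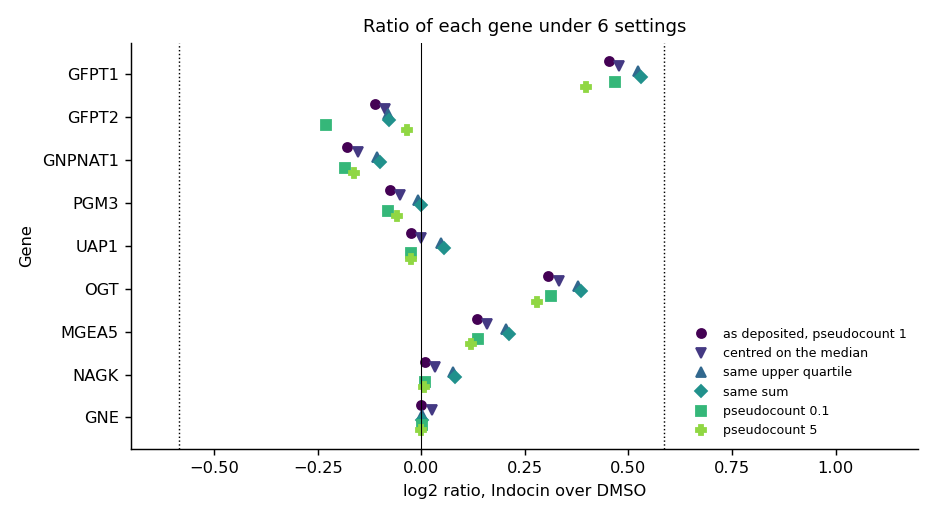
Log2 ratio of each of the 9 genes, Indocin over DMSO (x axis), under 6 settings of pseudocount and scaling (symbols); dotted lines mark 1.5-fold. GFPT1 lies from 0.40 to 0.53 and OGT from 0.28 to 0.39 under these settings, UAP1 crosses 0, and no gene passes a dotted line.

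GFPT1 belongs to the enzymes that take the amide nitrogen of glutamine, and these lay on both sides of 0. Asparagine synthetase, ASNS, stood at 322.6 FPKM in the Indocin library and 49.0 FPKM in the DMSO library, 6.58 times as high (log2 ratio 2.69), and was the only one of the other 8 past 1.5-fold. The 6 enzymes of purine and pyrimidine synthesis lay between -0.41 and -0.10. Among them CAD, which starts pyrimidine synthesis, stood at 16.3 FPKM in the Indocin library and 22.0 FPKM in the DMSO library (-0.41), and CTPS1, a CTP synthase, at 35.9 and 45.2 FPKM (-0.33). PPAT, which starts purine synthesis (-0.30), PFAS (-0.30) and GMPS (-0.25), further purine enzymes, and CTPS2 (-0.10) followed. NADSYN1, which makes NAD, had a ratio of 0.13. ASNS was 9.98 times as high as GFPT1 in the Indocin library and 2.10 times in the DMSO library.

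**Figure D4:**
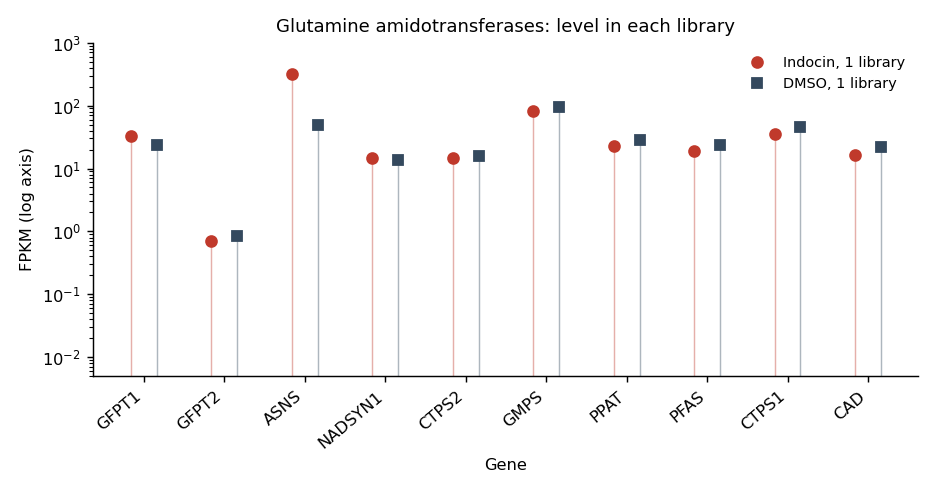
FPKM on a log axis of GFPT1, GFPT2 and the 8 other glutamine amidotransferases, with 1 point for the Indocin library (circle, left) and 1 for the DMSO library (square, right). ASNS shows the widest gap, 322.6 against 49.0 FPKM, GFPT1 a small gap in the same direction, and CAD, CTPS1, PFAS, PPAT and GMPS small gaps the other way.

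Of the 15 genes that supply the pathway with glucose, glutamine, acetyl-CoA and UTP, 1 passed 1.5-fold upward and none downward. This was the glutamine transporter SLC1A5, at 174.4 FPKM in the Indocin library and 88.6 FPKM in the DMSO library (0.97). The amino acid transporter SLC38A2, which also carries glutamine (115.5 and 85.2 FPKM, 0.43), and ACSS2, which makes acetyl-CoA from acetate (0.31), were higher by less. UMPS, which makes UMP from orotate, stood at 14.8 FPKM in the Indocin library and 19.6 FPKM in the DMSO library (-0.38). The median of the 15 was -0.08, and -0.01 with a common upper quartile. The enzymes that return or recycle GlcNAc held 6 measured members of 7, none past 1.5-fold, with a median of 0.05. Among their furthest members were the lysosomal hexosaminidase subunit HEXA (0.18), the sialic acid lyase NPL (0.13) and the deaminase GNPDA1 (-0.09).

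Of 5 transcription factors that have been tied to these genes, ATF4 and XBP1 were past 1.5-fold higher. ATF4, of the integrated stress response, stood at 689.0 FPKM in the Indocin library and 283.9 FPKM in the DMSO library (1.28). XBP1, of the unfolded protein response, known in mouse heart to act on hexosamine genes, stood at 261.4 FPKM in the Indocin library and 151.3 FPKM in the DMSO library (0.78). The FPKM of XBP1 counts the gene and not its spliced, active form. ATF6, a further ER stress factor, stood at 13.8 and 10.0 FPKM (0.43), and SP1, a general promoter factor, at 17.2 and 17.6 FPKM (-0.03, and above 0 with the same upper quartile or sum). E2F1, a cell cycle factor, stood at 29.05 FPKM in the Indocin library and 40.4 FPKM in the DMSO library (-0.46). Whether they bear on GFPT1 or OGT was not tested.

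The machinery that consumes UDP-GlcNAc or acts beside it differed little. None of 12 oligosaccharyltransferase subunits reached 1.5-fold, the furthest being TUSC3 (0.13), STT3A (-0.13), DAD1 (-0.11) and RPN1 (-0.08), and their ratios spanned a narrower range than those of the 7 pathway genes. None of 23 genes of N-glycan precursor assembly did so either. There DPAGT1, which uses UDP-GlcNAc in the first step, stood at 15.8 FPKM in the Indocin library and 18.5 FPKM in the DMSO library (-0.21). SRD5A3, which makes dolichol and also reduces steroids (0.43), ALG8 (-0.27) and ALG3 (-0.25) were the furthest. The UDP-GlcNAc transporters SLC35D2 (0.19), SLC35B4 (-0.19) and SLC35A3 (-0.04, above 0 with the same upper quartile or sum) stood between 8.48 and 12.5 FPKM in the Indocin library.

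Among 15 neighbouring nucleotide-sugar enzymes none passed 1.5-fold, with the mannose enzymes PMM2 (-0.32), PMM1 (0.26) and GMPPB (-0.24) among the furthest. Golgi enzymes that add GlcNAc or core fucose had 8 measured members of 13, with 7 below 0 under every scaling tried. Of all measured genes 55.2% lay below 0, and 41.1% with a common upper quartile. The median of the 8 was -0.14, and -0.07 with a common upper quartile and -0.06 with a common sum. GCNT1, which branches O-glycans, stood at 5.00 FPKM in the Indocin library and 7.11 FPKM in the DMSO library (-0.43), followed by GCNT2 (-0.18), MGAT4B (-0.17) and MGAT1, which starts complex N-glycans (-0.15). Of 14 sialyltransferases 9 were measured and none passed 1.5-fold, with ST3GAL3 (0.31), ST6GALNAC1 (-0.30), ST3GAL4 (-0.21) and ST6GALNAC6 (-0.18) the furthest.

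On the log2(FPKM + 1) scale LFNG alone of these lists reached 1.5-fold lower, and not with a pseudocount of 5 FPKM. It encodes a GlcNAc transferase that extends O-fucose on Notch receptors and stood at 9.10 FPKM in the Indocin library and 15.0 FPKM in the DMSO library (-0.66). Its list of other O-linked sugars had 17 measured members and a median of -0.06 (0.01 with a common upper quartile and 0.02 with a common sum), with POMT1 (0.21), GALNT14 (-0.18) and GALNT11 (-0.16) next in size. HAS3, the hyaluronan synthase that polymerises UDP-GlcNAc with UDP-glucuronate, was listed at 0.908 FPKM in the Indocin library and 1.76 FPKM in the DMSO library (-0.53). In FPKM that was 0.516 times as high, a wider gap than the 0.606 times of LFNG, and HAS1 and HAS2 were listed at 0 in both. Of the first steps of GPI anchors, the transferase subunits PIGA (0.22) and PIGY (-0.11) and the de-N-acetylase PIGL (-0.28) were the furthest.

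Partners of OGT showed no common direction. TRAK2, a mitochondrial motor adaptor that binds OGT, stood at 13.3 FPKM in the Indocin library and 8.78 FPKM in the DMSO library (0.54). In FPKM it was 1.51 times as high, and with 1 FPKM added it did not reach 1.5-fold. HCFC1, the host cell factor that OGT cleaves, stood at 33.8 FPKM in the Indocin library and 39.2 FPKM in the DMSO library (-0.21). TET2, a DNA demethylation enzyme that binds OGT, had a ratio of 0.19 and BAP1, a deubiquitinase of HCFC1, of -0.10. The 8 measured partners had a median of 0.03. Over all 14 lists, 141 of 160 genes were measured, 4 were at least 1.5-fold higher (2.84%) and 1 was as much lower (0.709%), shares near those of all measured genes.

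**Figure D5:**
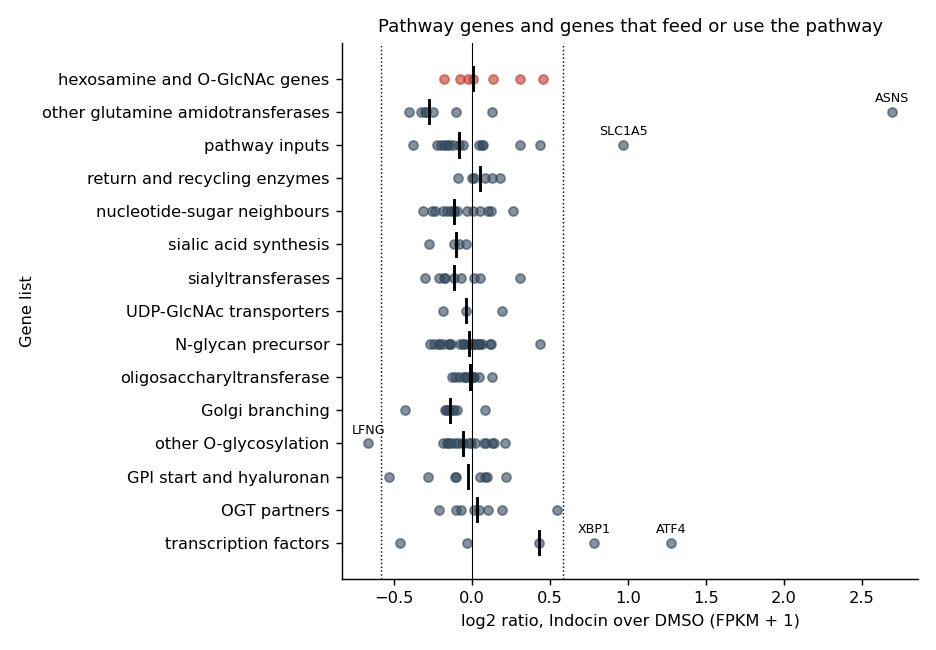
Log2 ratio, Indocin over DMSO on the FPKM + 1 scale (x axis), of each measured gene in the 9-gene set (red, top row) and in 14 lists of genes that feed, use or accompany the pathway (blue), with the median of each list as a black bar and 1.5-fold as dotted lines. ASNS, ATF4, SLC1A5 and XBP1 lie beyond the right dotted line and LFNG beyond the left one, and no gene of the top row lies beyond either.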

How the data were processed

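Strand-specific mRNA libraries were made with the KAPA Stranded mRNA-Seq kit from TRIzol RNA, per the labels' protocols. The deposited values were FPKM per gene symbol with a status, OK on every line, per the file headers. Tools listed in the submitters' processing notes are TopHat, Cufflinks, Cuffnorm, StringTie and bcl2fastq, with the builds hg19 and GRCh37. For versions, annotation and the strand setting of the quantification: not given in the sources used here. Gene symbols were matched as listed (MGEA5 as OGA in RefSeq).

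The 9 genes and the lists were chosen with earlier results of these data known. Log2 ratios used a pseudocount of 1 FPKM. Genes counted as measured had a mean of at least 1 FPKM, and 2066 symbols of short RNA genes were left out. With 1 library per group no test was run. From the lists, the 4 furthest measured members at most were named, and all glutamine amidotransferases and transcription factors. Some genes of the lists are not reported here. For relative depth, ratios of 1335 genes under 0.05 FPKM were compared within 1% with a factor times ratios of small whole numbers. The best factor took 51.8% of genes, against a median of 7.57% over the factors tried. The calculation was run on simulated data with planted changes well past 1.5-fold and little noise. That run checks the arithmetic only and does not bear on differences as small as those of the 9 genes. Promoters came from RefSeq, GRCh38.p14. Python 3.11.15, numpy 2.4.6 and pandas 2.3.3 were used.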

Additional observations from a re-analysis of the deposited data

How the results depend on the processing

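Alternatives were pseudocounts of 0.1 and 5 FPKM, no minimum mean or one of 5 FPKM, ratios centred on the median, a common upper quartile, a common sum, and thresholds of 2-fold and 1.2-fold. No pathway gene passed 1.5-fold under any pseudocount, minimum or scaling, and GFPT1 and OGT made the count 2 at 1.2-fold higher. UAP1 alone of the 9 genes changed sign, under the 3 rescalings (0.00 to 0.06). All 3 moved the ratios up, so only a gene below 0 could change sign. The common sum includes BCYRN1, at 26889 FPKM in the Indocin library and 43986 FPKM in the DMSO library, so it leans on this 1 gene. Of the 141 measured genes of the 14 lists, 2 were higher at 2-fold and 10 at 1.2-fold. Among all 11961 measured genes 91 were higher at 2-fold and 1186 (9.92%) at 1.2-fold. Lower list genes numbered 2 with a pseudocount of 0.1 FPKM (HAS3 was added) and 0 with 5 FPKM (LFNG was lost). At 2-fold 0 list genes were lower, and at 1.2-fold 14. Among all measured genes these 4 settings gave 189, 36, 5 and 1401 (11.7%) lower genes, in that order. The counts at other thresholds follow from the threshold itself. TRAK2 passed 1.5-fold with a pseudocount of 0.1 FPKM, a common upper quartile or a common sum. No paired analysis was possible because each group had 1 library, and no library could be left out for the same reason. Unknown read depth limits what can be said of GFPT2, GNE and other low values.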
